A study of Mus musculus with 36 samples.

Results

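The comparison described here is that of mouse CD4 T cells lacking TRIM28 after culture in Treg conditions with cells of the same genotype after culture in Th0 conditions, that is, stimulation without a lineage label. It rests on 6 of the 36 samples of the series, chosen by their titles: 3 KO Treg and 3 KO Th0 samples. Naive CD4 T cells were sorted from Trim28-KO mice and wild-type (WT) littermates and were stimulated for 72 h through plate-bound anti-CD3 with soluble anti-CD28; every Th0, Treg and Th17 group named here shares that stimulation, and the naive groups had none. Used beside the 6 samples were 3 WT Treg and 3 WT Th0 samples, for the same comparison with TRIM28 present, and 3 KO Th17 samples, for another lineage condition without TRIM28. The labels give no Cre driver, no age and no cytokine or antibody added for a lineage, so the Treg and Th0 media are known by name only. Nothing in the labels says whether replicates came from separate mice or cultures, and the p-values below measure only the spread between these samples, which may be technical.

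TRIM28 is a co-repressor that KRAB zinc-finger proteins bring to DNA, where it recruits enzymes of heterochromatin. Induced regulatory T cells arise in culture when T cell receptor stimulation meets TGF-beta and IL-2. TGF-beta binds a pair of receptor kinases that phosphorylate Smad2 and Smad3, these enter the nucleus with Smad4, and among the genes they switch on are inhibitors of the same pathway. FOXP3 is the transcription factor that defines the Treg lineage, and CD103, encoded by Itgae, is an integrin chain that TGF-beta induces on T cells.

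RNA was measured on Affymetrix arrays and is given as log2 RMA values, on which 1 unit is a 2-fold difference and which have no true zero. The sample medians lay between 5.18 and 5.35. The number of arrays, 3 a group, limits the precision. Of 22180 genes with a probe set carrying 1 symbol, 13082 lay above the median of the table in at least 3 samples and were tested with limma; a gene is said here to have risen or fallen where its Benjamini-Hochberg adjusted p over all 13082 was under 0.05. Differences are Treg minus Th0 on the log2 scale with the standard error (SE) of the fit. Different genes' values come from different probe sets and are not compared with each other.

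The labels were first set against the targeted gene and the lineage genes. Trim28 read 6.22, 6.4 and 6.21 in KO Treg samples 1 to 3 and 6.06, 6.04 and 5.68 in KO Th0, against 9.53, 9.21 and 9.33 in WT Treg and 9.84, 9.67 and 9.77 in WT Th0. All 6 KO samples thus lay below every WT sample; whether the probe set covers the deleted part was not established. Foxp3 read 12.11, 11.93 and 12.09 in KO Treg and 11.56, 11.13 and 11.72 in KO Th0, and the groups did not overlap. That difference of 0.57 (SE 0.35) missed the threshold (adjusted p = 0.29). KO Th0 cells were themselves far above KO naive cells, which read 8.08, 8.89 and 7.88, and above KO Th17 cells, which read 8.05, 7.73 and 7.35. In WT cells the same comparison gave 1.29 (SE 0.35, adjusted p = 0.0038), and the genotypes' differences were not told apart (-0.72, SE 0.50, adjusted p = 0.31). KO Treg cells were thus Foxp3-high against naive and Th17 cells, but the Th0 cultures they are compared with were Foxp3-high too.

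Markers of CD4 T cells were high in all 6 samples, between 9.12 and 12.4 over the 8 genes of that list. Of these, 5 nevertheless fell in KO Treg (Cd4, Cd3d, Zap70, Cd2 and Cd6), beside 12% of all genes tested. Cd4 went from 11.46, 11.47 and 11.39 to 10.76, 10.52 and 10.78 (-0.75, SE 0.089, adjusted p = 2.5e-07), and its WT difference was -0.61. Of 9 B cell markers none exceeded 6.13 in the 6 samples, with Ms4a1 (CD20) at 3.20 to 3.41, and the summed log2 values were 42.2 to 42.7 in KO Th0 and 40.8 to 43.1 in KO Treg. The sum over 12 myeloid markers was 61.5 to 62.5 in KO Th0 and 64.6 to 65.9 in KO Treg. Of these markers, Lyz2, Csf1r, Cd14, S100a8 and S100a9 stayed at or under 5.06 in every one of these samples. Adgre1, Fcer1g, Tyrobp and Spi1 stayed at or under 5.82. Cd68 was higher, at 7.2 to 7.78 in KO Th0 and 6.82 to 7.54 in KO Treg. What rose on that list was Itgam, the integrin chain CD11b, from 4.70, 4.84 and 4.68 to 7.20, 7.0 and 7.87 (2.62, SE 0.15, adjusted p = 1.6e-13), and Cst3 (0.59, SE 0.14, adjusted p = 0.0019), whose call is lost when a gene's probe sets are averaged. Cd8a, of the list for CD8, NK and gamma-delta T cells, rose from 4.81, 4.92 and 5.23 to 6.36, 6.5 and 6.11 (1.34, SE 0.24, adjusted p = 9.8e-05). The other CD8 chain on that list, Cd8b1, did not rise, at 7.02 to 7.43 in KO Th0 and 6.41 to 7.22 in KO Treg. That list's sum over 6 genes was 30.3 to 30.8 in KO Th0 and 30.7 to 33.0 in KO Treg, and the part of other cells in the results below was not tested. In these bulk samples fewer cells of a type and less RNA per cell cannot be told apart.

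In KO Treg over KO Th0, 19.6% of the genes tested changed: 1002 genes rose, which is 7.66%, and 1566 fell, which is 12%. At least 2-fold changes numbered 255 upward (1.95%) and 281 downward (2.15%). The median of all genes tested was -0.028. Fitted to these 6 samples alone, without the spread of the other 30, the calls were 603 upward and 923 downward.

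The largest rises were in genes of quite different function. Glp1r, the receptor of the incretin hormone GLP-1, read 5.11, 5.16 and 5.6 in KO Th0 and 11.17, 11.02 and 11.12 in KO Treg, a 56.2-fold rise (5.81, SE 0.15, adjusted p = 2.6e-21). It was near its Th0 level in KO naive cells (4.87 to 4.99) and KO Th17 cells (5.03 to 5.36), so the KO Treg samples stood alone among the KO groups shown. Pcp4, a small calmodulin-binding protein, went from 5.30, 5.28 and 5.75 to 10.78, 10.88 and 10.27, a 36.7-fold rise (5.20, SE 0.15, adjusted p = 1.4e-20). Apol9b rose from 4.60, 4.32 and 5.15 to 9.96, 9.81 and 9.21 (4.97, SE 0.44, adjusted p = 1.3e-09), although its near-identical copy Apol9a may share the probes. Itgae rose 28.2-fold, from 5.55, 5.31 and 6.0 to 10.03, 10.51 and 10.77 (4.82, SE 0.20, adjusted p = 6.2e-17).

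The next 8 by size were Rasgrp3 (4.27), a Ras activator; Adamtsl2 (3.96), a matrix protein; Cd40 (3.94), a TNF receptor family member best known on B cells; the tyrosine kinase Src (3.71); Hepacam2 (3.67); Agap1 (3.44), an Arf regulator; the tyrosine kinase Fes (3.32); and Cd101 (3.22), a surface glycoprotein found on Tregs. Each had all 3 KO Treg samples above all 3 KO Th0 samples, as the choice of these genes required. Across all genes tested, 12.7% had that order and 19.2% the reverse.

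Among the genes that fell, several belong to the interferon response and to effector T cells. Gzmb, the protease granzyme B, read 5.84, 9.14 and 9.62 in KO Th0 and 4.03, 3.81 and 3.73 in KO Treg, a 20.2-fold fall (-4.34, SE 0.70, adjusted p = 3.1e-05). KO Th0 sample 1 was well below the other two; without it the difference was -5.52. Gbp11, an interferon-induced GTPase, went from 6.36, 8.84 and 8.77 to 3.58, 4.31 and 3.50 (-4.19, SE 0.42, adjusted p = 1.7e-08), with the same KO Th0 sample lowest. Dapl1, a transcript of naive-like T cells, fell from 11.28, 11.05 and 11.49 to 7.04, 7.37 and 7.54 (-3.96, SE 0.21, adjusted p = 2.4e-14).

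Further down were Ifit1bl1 (-3.92), of the interferon-induced IFIT family; Gimap7 (-3.62), a lymphocyte GTPase; Ccr2 (-3.53), a chemokine receptor; Nrn1 (-3.50), a surface protein of anergic and regulatory T cells; Abcb1b (-3.20), a multidrug exporter; Lilrb4a (-3.19), an inhibitory receptor; the class I gene H2-Q5 (-3.08), whose relatives may share probes and which is not called when the 6 samples are fitted alone; Il12rb2 (-2.98), the signalling chain of the IL-12 receptor; and Gbp9 (-2.91).

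**Figure D1:**
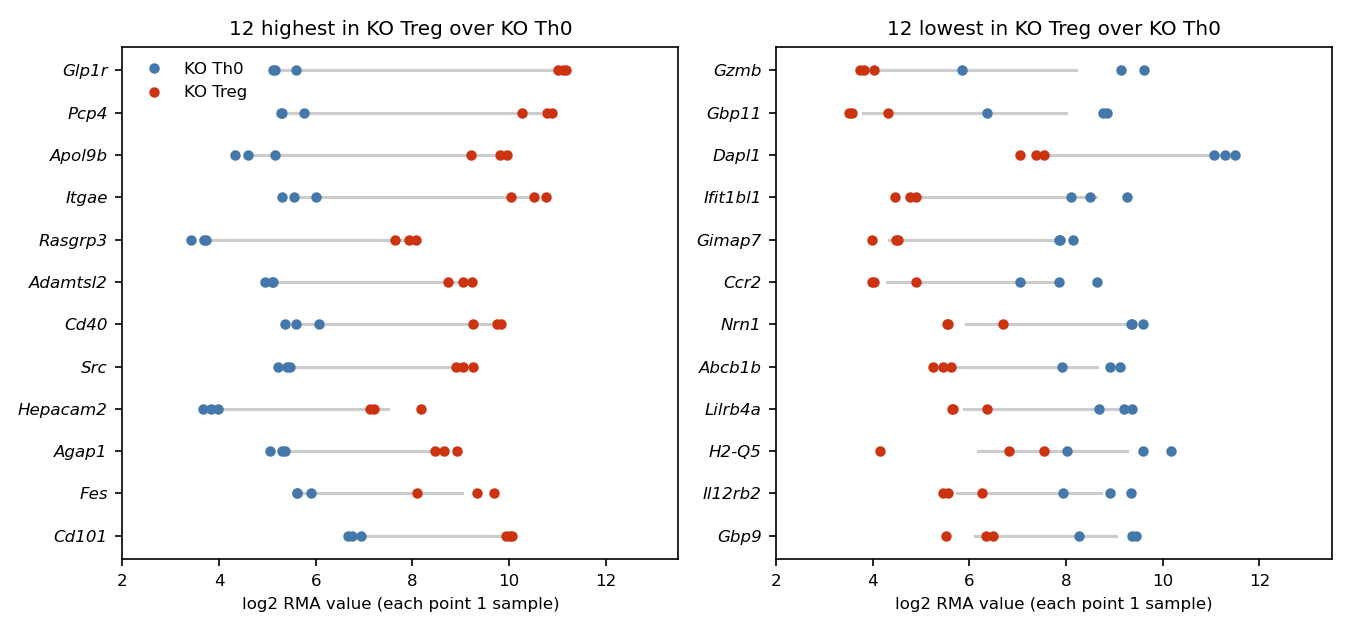
Log2 RMA value (x axis) of the 12 genes with the largest rise and the 12 with the largest fall in KO Treg over KO Th0 (y axis); each point is 1 sample, blue KO Th0 and red KO Treg, and the grey line joins the group means. The Glp1r points lie at 5.11 to 5.6 in KO Th0 and at 11.02 to 11.17 in KO Treg, and for Gzmb KO Th0 sample 1, at 5.84, is far from the other two.

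The TGF-beta pathway was described over a list of 36 genes, 32 of them tested, of which 11 rose and 4 fell, beside backgrounds of 7.66% and 12%; the list's median was 0.18, and 0.32 without KO Treg sample 2. Both ligands tested missed the threshold, Tgfb3 for example with 6.78, 7.25 and 6.73 in KO Th0 and 6.72, 7.24 and 6.33 in KO Treg (-0.15, SE 0.31, adjusted p = 0.80). Of 6 genes that activate the latent ligand, Furin, the protease that cleaves the TGF-beta precursor, rose from 9.32, 8.97 and 9.05 to 10.41, 10.50 and 9.90 (1.16, SE 0.13, adjusted p = 6.7e-08). Of 5 receptors, Tgfbr1, the type I receptor kinase, rose from 7.94, 7.99 and 8.20 to 9.76, 9.75 and 9.86 (1.74, SE 0.16, adjusted p = 3.7e-09), and the co-receptor Tgfbr3 fell by 0.41 (SE 0.091, adjusted p = 0.0013).

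Of 3 signal carriers tested 2 fell, and Smad2 gave 0.10 (SE 0.092, adjusted p = 0.53). Smad3 fell from 9.39, 9.26 and 9.37 to 8.79, 8.66 and 8.74 (-0.61, SE 0.11, adjusted p = 0.00015), and Smad4, the partner shared by all receptor-regulated Smads, fell by 0.28 (SE 0.084, adjusted p = 0.017). In WT cells Smad3 did not pass (0.012) and Smad4 rose (0.38, adjusted p = 0.00058); the genotypes' differences were -0.62 (SE 0.16, adjusted p = 0.0043) for Smad3 and -0.66 (SE 0.12, adjusted p = 0.00025) for Smad4.

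Of the 9 inhibitors 8 rose. Pmepa1, which sequesters receptor-regulated Smads, went from 6.54, 6.44 and 7.17 to 9.54, 9.60 and 9.48, a 7.08-fold rise (2.82, SE 0.25, adjusted p = 1.3e-09). Its relative Ldlrad4 rose from 9.36, 8.92 and 9.32 to 11.20, 10.88 and 11.26 (1.92, SE 0.19, adjusted p = 1.7e-08). Bambi, a decoy receptor, read 6.22, 6.0 and 6.35 and then 7.46, 7.71 and 6.71 (1.10, SE 0.20, adjusted p = 0.00017). Those 3 genes had all KO Treg samples above all KO Th0 samples, as had 12.7% of all genes tested.

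The other inhibitors that rose were smaller in size: the ubiquitin ligases Smurf2 (0.87) and Smurf1 (0.75), the inhibitory Smad7 (0.82), and the Smad co-repressors Skil (0.81) and Ski (0.71). In WT cells 5 of these 8 rose by more than in KO cells, by a test of the difference itself. Of all genes tested, 13.9% had the lower difference in KO. In WT, Skil rose by 2.49 (KO minus WT -1.69, adjusted p = 1.4e-05), Smad7 by 1.88 (-1.06, adjusted p = 2.3e-05) and Ldlrad4 by 3.26 (-1.35, adjusted p = 0.00077). Smurf2 rose there by 1.46 (-0.60, adjusted p = 0.0016) and Smurf1 by 1.37 (-0.62, adjusted p = 0.0027). For Pmepa1 and Bambi the KO difference was the larger, by 1.39 (adjusted p = 0.0045) and 1.10 (adjusted p = 0.0055), and for Ski no difference was called (-0.32, adjusted p = 0.074). Some of these contrasts start from unlike Th0 levels. Pmepa1 averaged 6.72 in KO Th0 and 8.21 in WT Th0, but 9.54 and 9.64 in the Treg groups. Ldlrad4 averaged 9.2 and 8.21 in Th0, and 11.12 and 11.47 in Treg.

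Of 7 target genes, Itgae rose and Id2, an inhibitor of DNA-binding helix-loop-helix factors that TGF-beta represses, fell from 10.53, 10.56 and 10.49 to 9.14, 9.34 and 9.24 (-1.28, SE 0.12, adjusted p = 2.5e-09). In WT cells Id2 fell by 1.33. The pathway's mean level was 8.55, 8.54 and 8.53 in KO Treg samples 1 to 3 and 7.96, 7.90 and 8.06 in KO Th0, and in KO Th17, a condition usually also made with TGF-beta, it was 8.61, 8.53 and 8.48.

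**Figure D2:**
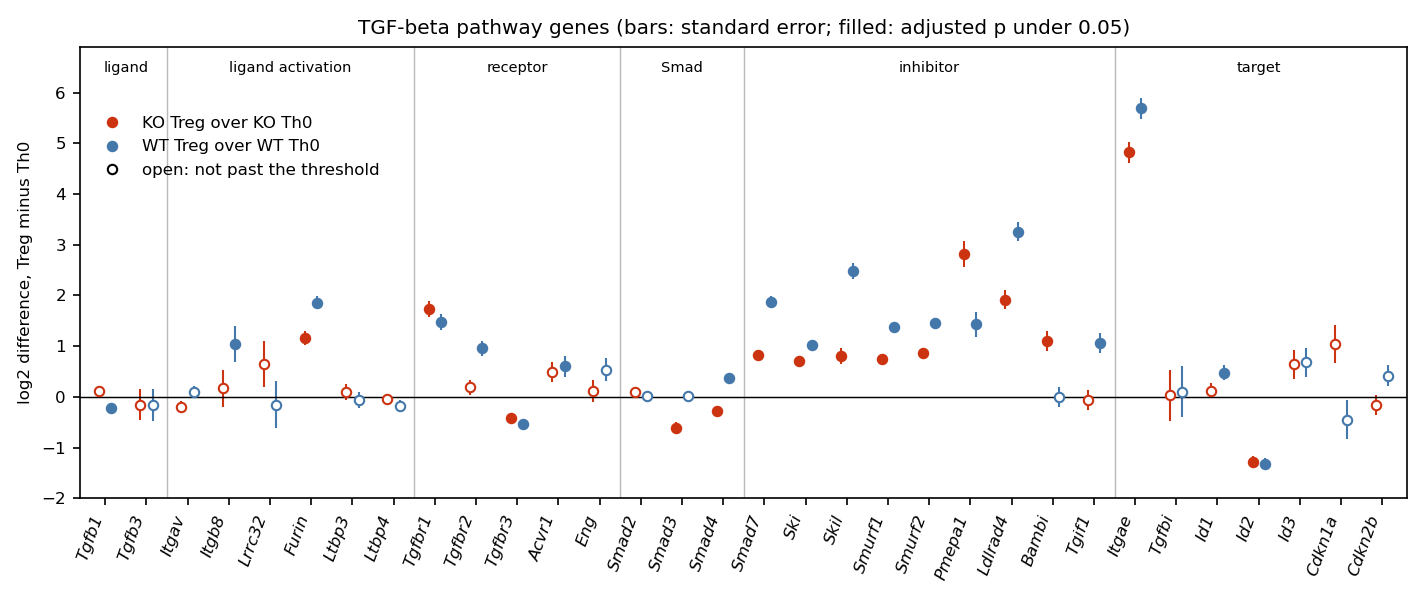
Log2 difference of Treg minus Th0 (y axis) for each tested gene of the TGF-beta list, ordered by role (x axis), in KO cells (red) and WT cells (blue); bars are the standard error of the fit, n = 3 a group, and filled points passed the threshold. For 8 of 9 inhibitors the red points are filled and above 0, and the red points of Smad3 and Smad4 lie below 0.

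On the Treg list, 8 of 26 tested genes rose and 2 fell (median 0.32), beside 7.66% and 12% of all genes. The list's mean level was 8.45, 8.41 and 8.79 in KO Th0 and 9.19, 9.09 and 9.26 in KO Treg. In KO Th17 it was much the same as in KO Treg, at 9.23, 9.14 and 9.12. Over KO Th17, 9 of the 26 were higher in KO Treg and 10 lower, beside 24.6% and 27.5% of all genes. Ikzf4, encoding the FOXP3 partner Eos, rose from 9.75, 9.32 and 9.80 to 10.94, 10.78 and 10.96 (1.27, SE 0.20, adjusted p = 2.5e-05). Ikzf2, encoding Helios, gave 0.79 (SE 0.29, adjusted p = 0.059), and Il2ra (CD25) and Ctla4 gave 0.29 (adjusted p = 0.46) and 0.26 (adjusted p = 0.51). Il2ra was already at 11.97 to 12.24 in KO Th0.

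Both ectoenzymes that turn ATP into adenosine rose: Nt5e (CD73) from 9.88, 9.83 and 10.26 to 11.50, 11.60 and 11.51 (1.55, SE 0.20, adjusted p = 1.3e-06), and Entpd1 (CD39) from 5.87, 6.73 and 6.92 to 7.55, 7.53 and 7.75 (1.10, SE 0.25, adjusted p = 0.0014). Among surface markers, Ccr8, a chemokine receptor of tissue Tregs, went from 6.87, 7.95 and 8.62 to 10.66, 10.63 and 10.85 (2.90, SE 0.33, adjusted p = 1.2e-07). Gpr83, a peptide receptor of Tregs, went from 7.56, 7.30 and 8.83 to 10.70, 10.50 and 9.27 (2.26, SE 0.38, adjusted p = 4.7e-05). For Ccr8 the KO Th0 samples were spread over almost 2 units while the KO Treg samples were close together, and for Gpr83 sample 3 of each group lay nearest the other group.

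Nrp1, a semaphorin co-receptor of Tregs, rose by 1.20 (SE 0.29, adjusted p = 0.0033) and the actin-capping gene Capg by 0.97 (SE 0.23, adjusted p = 0.0032). The list's falls were Ebi3, a subunit of the cytokine IL-35, from 8.47, 8.26 and 8.32 to 6.5, 6.52 and 7.0 (-1.68, SE 0.18, adjusted p = 6.8e-08), and Tnfrsf18 (GITR), by 0.41; without KO Treg sample 1 or 2 or KO Th0 sample 3 the list had 1 fall. Compared with WT, Ccr8 and Gpr83 rose more in KO (by 2.03, adjusted p = 0.0020, and 2.13, adjusted p = 0.0040) and Nrp1 less (-1.88, adjusted p = 0.0015). These contrasts start from unlike Th0 levels: Ccr8 averaged 7.81 in KO Th0 and 9.63 in WT Th0, but 10.71 and 10.49 in the Treg groups, and Nrp1 averaged 8.77 and 6.83 in Th0, but 9.97 and 9.92 in Treg. Gpr83 did differ at the end point, 10.16 in KO Treg and 7.68 in WT Treg, from Th0 means of 7.90 and 7.55.

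**Figure D3:**
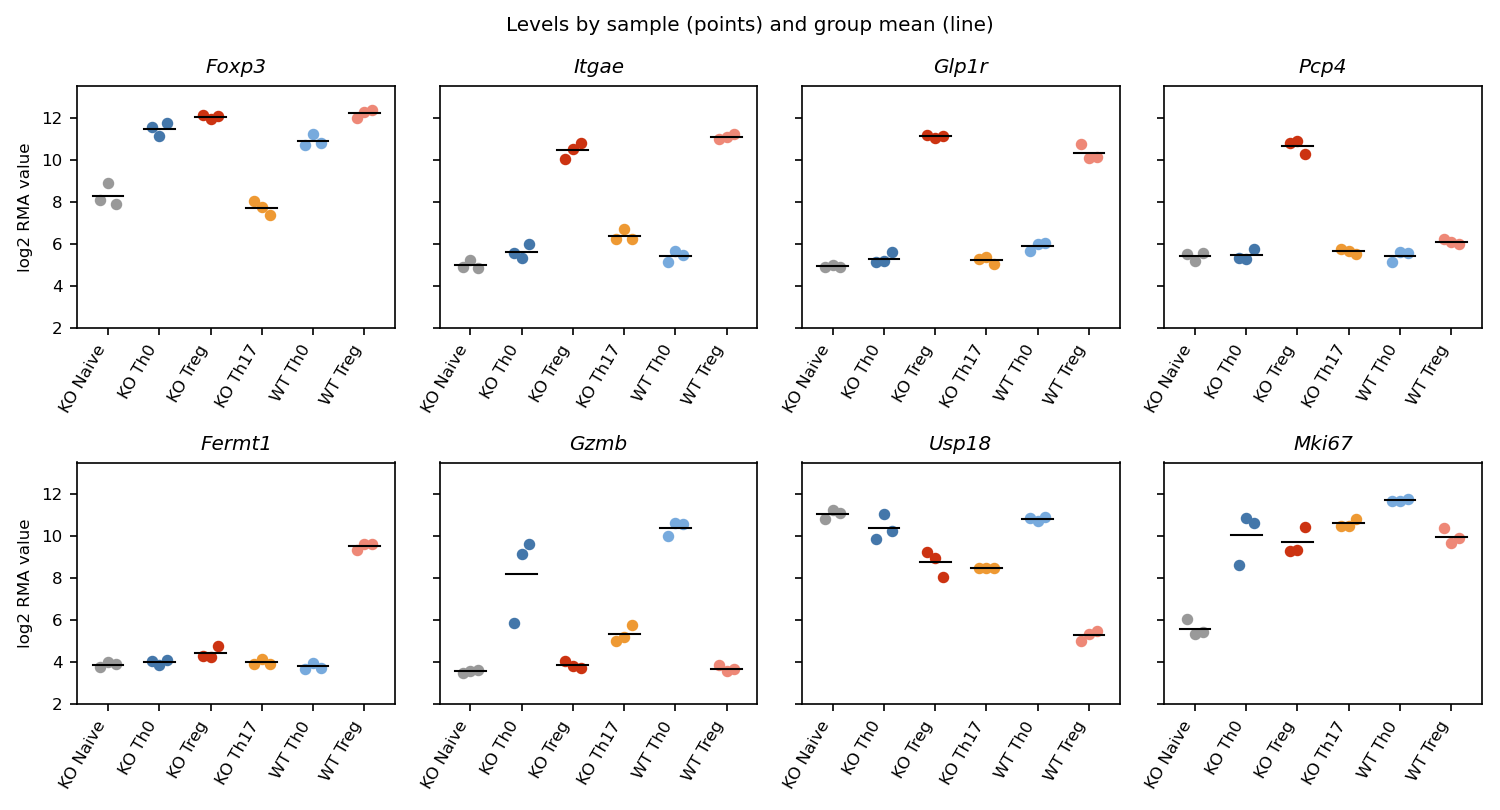
Log2 RMA value (y axis) of 8 genes in 6 groups (x axis); each point is 1 sample and the black line is the group mean, n = 3. Foxp3 is high in KO Th0 as well as in KO Treg, Pcp4 is high in KO Treg only among these groups, Fermt1 in WT Treg only, and KO Th0 sample 1 is low for Gzmb and Mki67.

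Genes of other lineages did not move as blocks. Beside the counts of the lineage and cytotoxic lists below, 12% of all genes tested fell in KO and 7.66% rose. Of 18 Th1 genes tested 5 fell and 1 rose (median -0.30). Stat4, which relays IL-12, fell from 12.02, 11.97 and 11.97 to 10.36, 10.34 and 10.58 (-1.56, SE 0.16, adjusted p = 1.7e-08), and with Il12rb2 the other IL-12 receptor chain, Il12rb1, fell by 1.46 (SE 0.24, adjusted p = 2.9e-05). Tbx21 (T-bet) gave -0.45 (adjusted p = 0.21) and Ifng -0.28 (adjusted p = 0.77), both low in KO Th0. The rise, Lta (1.08, SE 0.37, adjusted p = 0.035), did not pass without KO Th0 sample 1, 2 or 3 or KO Treg sample 1 or 2. Stat4 fell further in KO than in WT cells (-1.07, SE 0.22, adjusted p = 0.0010).

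Cytotoxic genes split. Beside Gzmb, 4 others of 13 fell: Serpinb6b, a granzyme inhibitor (-1.64), Klrd1 (CD94, -1.36), Gzmc (-1.33) and Fasl (-1.30). Ctsw, a cathepsin of cytotoxic lymphocytes, rose from 8.64, 9.43 and 9.37 to 12.38, 12.25 and 12.19 (3.13, SE 0.21, adjusted p = 4.7e-12). Prf1, the pore former perforin, rose from 6.52, 6.65 and 6.71 to 9.31, 9.49 and 9.05 (2.66, SE 0.15, adjusted p = 1.7e-13), so that perforin and granzyme B moved in opposite directions. Prf1 rose by 1.51 in WT cells, less than in KO (1.15, SE 0.22, adjusted p = 0.00038), and Ctsw by 3.23.

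Of 11 Th2 genes 2 rose, Ccr8 and Nfil3 (0.98, SE 0.21, adjusted p = 0.0011), and none fell. Il4 and Il13 stayed at or under 5.72 in all 6 samples, and Gata3 gave -0.45 (adjusted p = 0.059). With the replicate number as a block Gata3 passed (-0.45, adjusted p = 0.020) and the list had 1 fall, as it did without KO Th0 sample 2 or KO Treg sample 3. Of 18 Th17 genes 4 rose and 2 fell, none of them a cytokine: the factors Ahr, the aryl hydrocarbon receptor (2.54, SE 0.30, adjusted p = 2.0e-07), and Maf (2.51, SE 0.16, adjusted p = 1.5e-12) rose, and Batf (-1.41) and Hif1a (-0.88) fell. Maf read 5.65, 5.77 and 5.90 and then 8.19, 8.34 and 8.31, and it rose more in WT, by 4.09 (KO minus WT -1.58, SE 0.23, adjusted p = 2.3e-05).

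The 4 loci of the miR-181 family were looked up after their values were seen. These microRNAs are known in T cells for setting the strength of receptor signalling. The array measures the precursor or its host transcript rather than the mature RNA, and the loci lie as pairs on chromosome 1 (Mir181a-1 and Mir181b-1) and chromosome 2 (Mir181a-2 and Mir181b-2). The mature 5p sequences, from RefSeq on GRCm38.p6, are shown because all 4 loci give the same seed, bases 2 to 8, in capitals; letters outside it differ between the a and b forms.
miR-181a-5p, chr2:38852741-38852763, plus strand: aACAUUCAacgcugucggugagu
miR-181b-5p, chr2:38853845-38853868, plus strand: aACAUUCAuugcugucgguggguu
Mir181b-2 read 3.42, 3.85 and 3.60 in KO Th0 and 8.74, 8.89 and 8.22 in KO Treg (4.99, SE 0.17, adjusted p = 8.8e-19), and rose by 4.81 in WT. Its neighbour Mir181a-2 rose from 3.83, 3.78 and 3.59 to 5.81, 5.94 and 5.11 (1.89, SE 0.19, adjusted p = 1.2e-08), less than in WT, where it rose by 2.87 (KO minus WT -0.99, SE 0.26, adjusted p = 0.0066). On chromosome 1, Mir181b-1 rose from 6.21, 5.6 and 6.36 to 8.76, 8.64 and 9.18 (2.80, SE 0.31, adjusted p = 7.5e-08), by 3.44 in WT. Mir181a-1 was too low to be tested, at 3.27, 3.06 and 3.28 in KO Th0 and 4.16, 4.42 and 4.14 in KO Treg. In KO Th17 the highest sample read 3.69 at Mir181a-1, 4.03 at Mir181a-2, 6.39 at Mir181b-1 and 3.87 at Mir181b-2, each below the lowest KO Treg sample at that locus.

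Interferon-stimulated genes fell in KO Treg, but by less than in WT. Of 32 tested, 18 fell and none rose (median -0.76; background of falls 12%). Fitted to the 6 samples alone, 8 fell, and without KO Th0 sample 2, the highest of its group, 10 did. The list's mean level was 7.09, 8.24 and 7.71 in KO Th0 samples 1 to 3 and 7.01, 6.80 and 6.85 in KO Treg, so KO Th0 sample 1 lay almost at the Treg level. In WT cells the means were 8.89, 8.95 and 8.93 in Th0 and 6.61, 6.47 and 6.51 in Treg. There 29 of 32 fell, with a median of -2.32, beside 22.4% of all genes. The interaction was called for 24 of the 32, all with a smaller fall in KO, against 13.1% of all genes tested.

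Usp18, a protease that removes ISG15 and restrains the interferon receptor, differed between the genotypes in Treg rather than in Th0, unlike the list's mean. It read 9.85, 11.06 and 10.25 in KO Th0 and 9.26, 8.96 and 8.07 in KO Treg (-1.62, SE 0.26, adjusted p = 3.2e-05). In WT it went from 10.86, 10.72 and 10.89 to 5.0, 5.36 and 5.47 (-5.55, SE 0.26, adjusted p = 1.1e-15), so KO and WT Th0 means were close and the Treg groups were 3 units or more apart (KO minus WT 3.93, SE 0.37, adjusted p = 5.6e-08). Cmpk2, an antiviral nucleotide kinase, had the list's deepest fall in KO, from 7.10, 8.61 and 8.27 to 5.87, 5.68 and 5.84 (-2.2, SE 0.32, adjusted p = 7.2e-06).

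Oas3, a sensor enzyme of double-stranded RNA, fell from 7.03, 9.02 and 8.0 to 5.81, 6.32 and 6.0 (-1.97, SE 0.36, adjusted p = 0.00015). Ifit2, which binds viral RNA, fell by 1.61 (SE 0.22, adjusted p = 2.2e-06), and the factor Irf7 by 1.26 (SE 0.25, adjusted p = 0.00049). The sensor Ifih1 (MDA5) read 7.61, 8.62 and 8.19 and then 6.96, 6.39 and 6.49 (-1.53, SE 0.24, adjusted p = 1.9e-05). Isg15, a ubiquitin-like protein, read 6.15, 6.64 and 6.0 and then 6.22, 6.22 and 6.06 (-0.10, SE 0.18, adjusted p = 0.79), whereas it fell by 1.56 in WT (KO minus WT 1.47, SE 0.26, adjusted p = 0.00022).

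Promoters from RefSeq (GRCm38.p6, 250 bases before to 50 after a transcription start) were searched on both strands for the core letters of the interferon-stimulated response element, a pair of GAAA repeats with a short free gap. The search left out all promoters of a whole chromosome, the one that carries Smad7, Ldlrad4 and Bambi. A promoter was used for 22 of the 32 genes, and 10 of those genes held the letters. By promoter that is 11 of 28, or 39.3%, against 0.819% of all 32851 promoters searched. The list was written as interferon-stimulated genes, so its share is no test of the fall in KO Treg. Among promoters of genes that rose at least 2-fold in KO Treg the share was 2.66%, and among those that fell at least 2-fold also 2.66%. Ifih1 and Isg15 are printed, in lower case with the matches in capitals, because both hold the motif while only the first fell in KO Treg.
Ifih1, chr2:62646206-62646505, minus strand: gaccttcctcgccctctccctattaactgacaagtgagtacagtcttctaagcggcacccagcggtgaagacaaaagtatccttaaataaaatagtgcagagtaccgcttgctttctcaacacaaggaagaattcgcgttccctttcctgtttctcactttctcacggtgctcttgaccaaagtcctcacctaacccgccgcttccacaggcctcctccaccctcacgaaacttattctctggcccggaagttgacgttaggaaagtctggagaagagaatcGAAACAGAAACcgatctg
Isg15, chr4:156200769-156201068, minus strand: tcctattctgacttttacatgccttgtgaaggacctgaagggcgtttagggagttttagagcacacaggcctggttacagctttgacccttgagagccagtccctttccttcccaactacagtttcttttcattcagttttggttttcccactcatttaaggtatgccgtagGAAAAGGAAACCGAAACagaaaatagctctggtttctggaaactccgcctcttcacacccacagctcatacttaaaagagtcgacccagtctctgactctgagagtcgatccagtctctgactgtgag
Ifih1 has 1 match and Isg15 has 2. A match is a description of the letters and not of a bound site.

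Genes of growth fell in WT and mostly did not pass in KO. Among 20 mitosis genes tested none passed the threshold in KO Treg over KO Th0, with a median of -0.42, whereas in WT all 20 fell, with a median of -2.25 (22.4% of all genes fell). The list's mean was 7.18, 9.46 and 8.99 in KO Th0 and 7.80, 7.85 and 8.62 in KO Treg, so the groups overlapped and KO Th0 sample 1 was the lowest of the 6. Without that sample 14 of the 20 fell, with a median of -1.10, and without KO Th0 sample 2 the median was 0.05 with none called. In WT Th0 the means were 10.44, 10.48 and 10.53, and in WT Treg 8.69, 7.90 and 8.18. The genotype difference was called for 14 of 20, all with the higher Treg minus Th0 difference in KO, beside 13.1% of all genes tested. It was called for 4 without KO Th0 sample 1, for 9 without WT Treg sample 2 and for 6 in a fit to the 12 samples alone.

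Mki67, encoding Ki-67, read 8.61, 10.86 and 10.64 in KO Th0 and 9.30, 9.35 and 10.43 in KO Treg (-0.35, SE 0.42, adjusted p = 0.64), and without KO Th0 sample 1 the difference was -1.06 (adjusted p = 0.041). Of 17 S phase genes tested none passed in KO (median 0.036), and all 17 fell in WT (median -1.73, beside 22.4% of all genes). The genotype difference was called for 17 of 17, each with the higher Treg minus Th0 difference in KO (13.1% of all genes). With the replicate number as a block, or without KO Th0 sample 2 or 3, 1 rose in KO. KO Th0 sample 1 was lowest for the S phase list too, with means of 7.67, 8.67 and 8.55 in KO Th0 and 8.30, 8.35 and 8.53 in KO Treg. In WT the list's means were 9.9, 9.98 and 9.93 in Th0 and 8.54, 8.05 and 8.16 in Treg.

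Sterol synthesis followed the same course: 2 of 17 genes rose in KO and none fell (median 0.26, beside 7.66% and 12% of all genes). The list's means were 8.0, 8.41 and 8.21 in KO Th0 and 9.48, 9.38 and 9.44 in WT Th0. In Treg they were 8.48, 8.58 and 8.21 in KO and 8.36, 7.94 and 8.09 in WT. In WT 16 of the genes fell (median -1.39, beside 22.4%), and 15 differed between the genotypes (27.0% of all genes). The 2 were Msmo1 (0.64) and Insig1 (0.51), and neither passed in a fit to the 6 samples alone or without KO Treg sample 1 or 2; 4 genes of the list rose without KO Th0 sample 2, and 1 rose without KO Th0 sample 1. Of the fatty acid genes 1 of 11 rose in KO and 1 fell, against 9 falls in WT; 3 rose without KO Treg sample 3. That rise was Scd1, the stearoyl-CoA desaturase, from 4.52, 5.23 and 5.27 to 7.52, 6.69 and 8.35 (2.51, SE 0.48, adjusted p = 0.00026). In WT it fell from 9.18, 8.62 and 8.50 to 7.21, 7.20 and 7.57 (-1.44, SE 0.48, adjusted p = 0.016). The Treg groups of the genotypes thus reached like levels from opposite sides, and the KO minus WT difference was 3.95 (SE 0.68, adjusted p = 0.00016).

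In glycolysis and hypoxia, 3 of 21 genes rose in KO and 4 fell (median -0.085, beside 7.66% and 12% of all genes). The list's means were 8.44, 8.65 and 8.48 in KO Th0 and 9.42, 9.3 and 9.54 in WT Th0. In Treg they were 8.41, 8.53 and 8.43 in KO and 8.31, 8.34 and 8.41 in WT. In WT 17 of the genes fell (median -1.07, beside 22.4%). The rises were 1 without KO Th0 sample 1 or 3 or KO Treg sample 2, and the falls 2 without KO Th0 sample 2; fitted to the 6 samples alone, 1 rose and 2 fell. Vegfa, the hypoxia-responsive growth factor, rose from 6.81, 6.67 and 6.60 to 8.85, 8.83 and 8.11 (1.90, SE 0.20, adjusted p = 2.3e-08) and fell in WT by 1.20 (KO minus WT 3.1, SE 0.28, adjusted p = 1.8e-08). Slc2a3, a glucose transporter, fell by 1.26 (SE 0.19, adjusted p = 7.9e-06). Pdk1, which holds pyruvate back from oxidation in the mitochondrion, fell by 1.08 (SE 0.16, adjusted p = 8.1e-06). Neither passed in WT, and both differences were called (-1.32, adjusted p = 0.00061, and -1.03, adjusted p = 0.0014). Pdk1 averaged 9.92 in KO Th0 and 8.86 in WT Th0, but 8.84 and 8.81 in the KO and WT Treg groups. Of 10 genes on the amino acid transport list 4 rose and 2 fell. The largest change was that of Slc43a3 (1.45, SE 0.26, adjusted p = 0.00013), whose product is not known to carry amino acids. The falls were 1 without KO Treg sample 1, 2 or 3 or KO Th0 sample 2 or 3, and fitted to the 6 samples alone 2 rose and 0 fell.

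**Figure D4:**
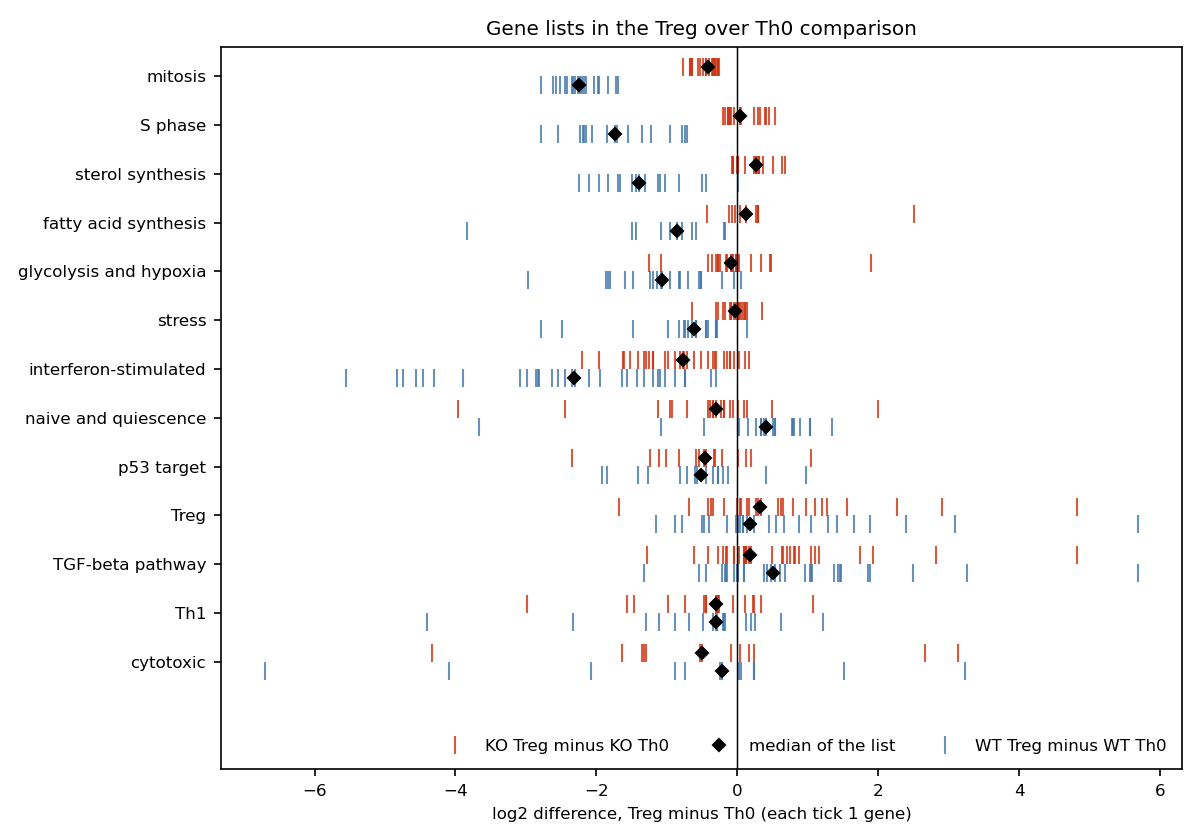
Log2 difference of Treg minus Th0 (x axis) for every tested gene of 13 lists (y axis), in KO cells (red ticks) and WT cells (blue ticks); each tick is 1 gene and the black diamond is the list's median. The mitosis medians are -0.42 in KO and -2.25 in WT, the S phase medians 0.036 and -1.73, and the interferon medians -0.76 and -2.32.

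Of 21 genes of naive and quiescent T cells 1 rose and 6 fell in KO (median -0.31; 7.66% and 12% of all genes), with 2 rises when the replicate number was a block. In WT 13 rose and 3 fell (median 0.41, beside 19.2% and 22.4% of all genes). The genotype difference was called for 13 with the lower Treg minus Th0 difference in KO (13.9%) and for 1 with the higher. The list's means were 10.45, 10.36 and 10.4 in KO Th0 and 9.78, 9.81 and 9.92 in WT Th0. In Treg they were 9.89, 9.87 and 10.02 in KO and 9.93, 10.12 and 10.17 in WT. Dapl1 and Ly6c1 fell in both genotypes. Il7r, the IL-7 receptor, read 11.79, 11.45 and 12.08 in KO Th0 and 10.13, 10.36 and 11.47 in KO Treg (-1.12, SE 0.26, adjusted p = 0.0020; adjusted p = 0.088 in a fit to the 6 samples alone). In WT it rose by 1.34 (KO minus WT -2.45, SE 0.36, adjusted p = 3.7e-05). Ly6c1, a surface antigen with close relatives that may share probes, fell from 6.23, 6.21 and 6.57 to 3.81, 4.05 and 3.81 (-2.45, SE 0.26, adjusted p = 3.4e-08), and Satb1, a chromatin organiser, fell by 0.95. Igfbp4, an IGF-binding protein, was the rise, from 9.21, 10.34 and 10.65 to 12.16, 11.99 and 12.02 (1.99, SE 0.21, adjusted p = 3.0e-08).

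Of the costimulation and activation list 7 of 21 genes fell and 2 rose, beside 12% and 7.66% of all genes. Among its 13 receptors 6 fell and none rose. Without KO Treg sample 2 the whole list's falls were 4. The rises were 0 without KO Treg sample 1 or 2 or KO Th0 sample 2, 1 without any other of the 6 samples, and 4 with the replicate number as a block. Cd40lg, the ligand by which helper cells instruct B cells, fell from 10.31, 10.25 and 10.20 to 8.11, 8.07 and 8.64 (-1.98, SE 0.20, adjusted p = 1.3e-08), further than in WT (-1.16, SE 0.28, adjusted p = 0.0030). Cd86 fell by 1.86 (SE 0.26, adjusted p = 4.8e-06). Cd28 fell by 0.87 (SE 0.14, adjusted p = 4.0e-05). Of cytokines, Tnfsf8 (CD30 ligand) fell by 1.58 (SE 0.17, adjusted p = 3.4e-08), and Il2 and Il10 were low in every sample, at 3.66 to 5.28 and 4.26 to 4.61.

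Integrin and homing genes moved in both directions, 6 of 23 up and 7 down, beside 7.66% and 12% of all genes. Fitted to the 6 samples alone, 3 rose. Opposite to Itgae, Itgb3 fell from 9.72, 9.45 and 9.26 to 6.76, 6.60 and 7.05 (-2.67, SE 0.19, adjusted p = 2.1e-11), more than in WT (-1.48, SE 0.27, adjusted p = 0.00033). Itga2, the collagen receptor chain, fell from 7.15, 7.61 and 7.84 to 4.44, 5.16 and 5.09 (-2.64, SE 0.19, adjusted p = 2.7e-11), by 2.73 in WT. Itgb7, which pairs with the Itgae product in CD103-bearing cells, fell by 0.57 (SE 0.084, adjusted p = 9.4e-06).

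Among 16 p53 target genes 9 fell and none rose (median -0.45), and 7 fell in WT (median -0.51), beside 12% of all genes in KO and 22.4% in WT. With the replicate number as a block, or without KO Th0 sample 2 or 3, 1 rose. Fitted to the 6 samples alone 5 fell, and 5 without KO Treg sample 1, KO Treg sample 2 or KO Th0 sample 3. Plk2, a stress-responsive kinase, read 7.46, 7.83 and 7.99 and then 5.31, 4.87 and 6.08 (-2.34, SE 0.35, adjusted p = 1.0e-05). Of the IL-2 and STAT5 list, Stat5a rose by 0.66 (SE 0.14, adjusted p = 0.00099) and the kinase Pim2 fell by 1.44 (SE 0.14, adjusted p = 7.4e-09), as it did in WT by 1.33. Of 21 early activation genes 2 fell, Fosl2 (-1.85) and the phosphatase Dusp1 (-1.49), and 1 rose, a call lost without KO Th0 sample 1 or KO Treg sample 2. In the list of partners of TRIM28 in silencing, 1 of 19 rose, the DNA methyltransferase Dnmt3b (0.84, SE 0.14, adjusted p = 7.1e-05), and 2 fell, Atf7ip (-0.50) and Trim24 (-0.46), both shares below those of all genes (7.66% and 12%). Of 18 stress genes, 1 was called, Dnajb1 (0.35, adjusted p = 0.044), which is lost without KO Th0 or KO Treg samples 1 or 2. Of 14 genes on the inhibitory receptor list the 2 rises were the ectoenzymes Nt5e and Entpd1, and of its 11 receptors none rose and 1 fell, Cd5 (-0.73, SE 0.11, adjusted p = 1.6e-05). The list's falls were 2 without KO Th0 sample 1 or 3, and 3 with the replicate number as a block.

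The whole comparison was then set beside its WT counterpart, which shares no samples with it. In WT, 41.6% of genes changed: 2518 rose (19.2%) and 2924 fell (22.4%). Of the KO rises 601 were also WT rises, which is 60% of the KO and 23.9% of the WT list; of the KO falls 701 were shared, 44.8% and 24%. Opposite calls numbered 69 (up in KO, down in WT) and 160 (down in KO, up in WT). The difference between the genotypes was called for 3529 genes (27.0%). The Treg minus Th0 difference was higher in KO for 1711 (13.1%) and lower for 1818 (13.9%). With cyclic loess scaling the split was 2283 and 1459. Of the 3529 genes 1051 were also called in KO, and of the other 2478, 2255 were called in WT.

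Pcp4 had the largest difference upward: WT Treg read 6.20, 6.07 and 6.0 and WT Th0 5.13, 5.59 and 5.54, so the WT rise was 0.67 and the KO rise exceeded it by 4.53 (SE 0.21, adjusted p = 1.2e-14). Fermt1, an integrin activator of the kindlin family, had the largest downward. In KO it stayed at 4.04, 3.87 and 4.12 in Th0 and 4.30, 4.25 and 4.76 in Treg (0.43, SE 0.31, adjusted p = 0.38), while in WT it went from 3.68, 3.98 and 3.72 to 9.33, 9.64 and 9.63 (5.74, SE 0.31, adjusted p = 2.3e-14). That leaves -5.31 (SE 0.44, adjusted p = 3.6e-09) between the genotypes. Abcc8, a subunit of ATP-sensitive potassium channels, rose in both, from 4.68, 4.44 and 4.64 to 6.98, 7.29 and 6.75 in KO and by 5.17 in WT (-2.75, SE 0.18, adjusted p = 2.9e-11).

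Among other genes at the extremes, Cacna1b, a neuronal calcium channel subunit, read 8.17, 7.62 and 8.01 in KO Th0 and 4.97, 5.47 and 5.51 in KO Treg (-2.62, SE 0.20, adjusted p = 5.8e-11), and was at 4.56 to 4.77 in all WT Th0 and WT Treg samples. St8sia6, a sialyltransferase, averaged 9.85 in KO Th0, 9.40 in KO Treg, 7.36 in WT Th0 and 10.22 in WT Treg (-3.31, SE 0.47, adjusted p = 2.2e-05). The lipid exporter Abca1 averaged 7.50, 7.09, 6.10 and 8.38 in that order (-2.68, SE 0.48, adjusted p = 0.00025), and Fads2, a fatty acid desaturase, 6.73, 6.61, 10.67 and 6.83 (3.71, SE 0.79, adjusted p = 0.0011). Oasl2, of the interferon list, averaged 6.51, 5.49, 10.08 and 5.33 (3.73, SE 0.70, adjusted p = 0.00035). Oas2, another double-stranded RNA sensor enzyme, differed by 3.43 (adjusted p = 0.00037), though its fall in KO (-1.41, adjusted p = 0.028) did not pass without KO Th0 sample 2 (-0.72, adjusted p = 0.29), and Tent5c, a poly(A) polymerase, by -2.57 (adjusted p = 1.3e-05). For Fads2 and Oasl2 the KO Th0 samples themselves ranged over 2 units or more.

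The promoters of the genes with the largest difference in each direction are printed because their Treg response differed most between the genotypes. They were searched on both strands for CAGACA, a Smad-binding element. It is in 21.0% of all promoters searched and in 16.7% of those of genes tested. Among promoters of genes that rose at least 2-fold in KO Treg the share was 23.2%, and among those that fell at least 2-fold 21.3%. A promoter was used for only 20 of the 32 TGF-beta genes tested, and 8 of those genes held the letters. By promoter that is 10 of 29 (34.5%), a share that leaves out the other genes of the list. Among those left out were Smad7, Ldlrad4 and Bambi, which lie on the chromosome that was not searched. Matches are in capitals.
Pcp4, chr16:96467356-96467655, plus strand: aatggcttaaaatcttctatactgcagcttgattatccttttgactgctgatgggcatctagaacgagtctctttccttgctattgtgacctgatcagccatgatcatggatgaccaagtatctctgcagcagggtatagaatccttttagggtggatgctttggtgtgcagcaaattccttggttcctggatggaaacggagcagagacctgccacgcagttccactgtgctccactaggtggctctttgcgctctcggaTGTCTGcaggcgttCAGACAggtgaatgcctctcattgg
Fermt1, chr2:132945987-132946286, minus strand: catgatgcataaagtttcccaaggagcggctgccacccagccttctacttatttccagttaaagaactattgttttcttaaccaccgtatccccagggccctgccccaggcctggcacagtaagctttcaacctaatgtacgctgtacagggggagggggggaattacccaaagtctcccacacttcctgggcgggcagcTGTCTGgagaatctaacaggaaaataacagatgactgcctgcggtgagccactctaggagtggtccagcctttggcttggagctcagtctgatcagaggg
Pcp4 has 2 matches and Fermt1 has 1, and a hexamer this common singles out neither.

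**Figure D5:**
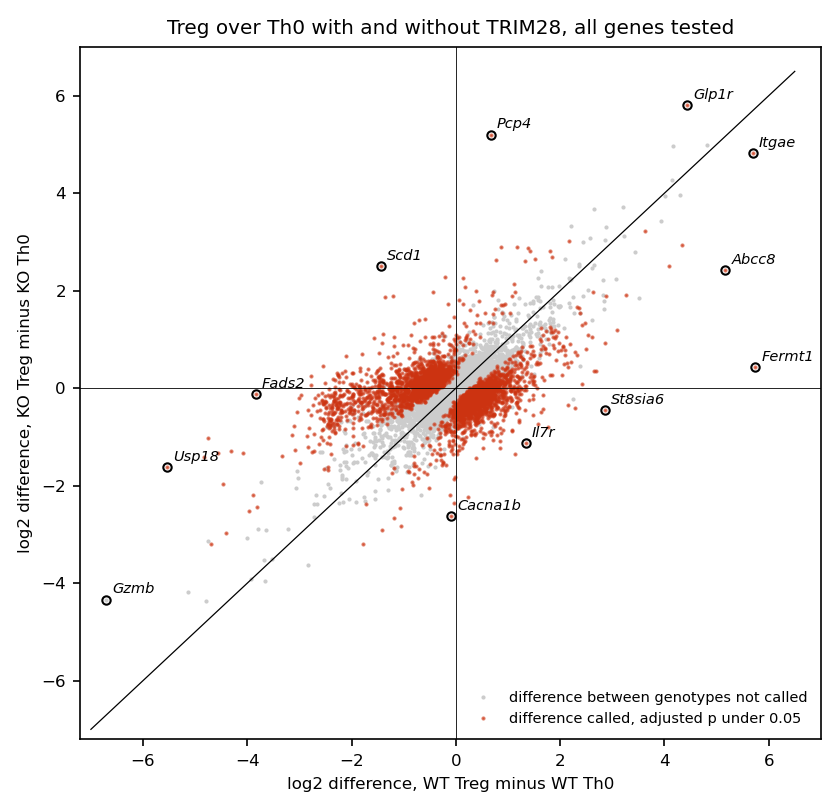
Log2 difference of Treg minus Th0 in WT cells (x axis) against KO cells (y axis); each point is 1 of 13082 genes, red where the difference between the genotypes passed the threshold, and the diagonal marks equal differences. Pcp4 lies high above the diagonal at 0.67 in WT and 5.20 in KO, and Fermt1 far below it at 5.74 and 0.43.

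Finally, KO Treg was compared with KO Th17 cells, where 52.1% of genes differed: 3224 were higher in KO Treg (24.6%) and 3592 lower (27.5%). This comparison shares the KO Treg samples with the one above. Foxp3 was among the 6 largest differences upward (4.33, SE 0.35, adjusted p = 2.7e-11), with Glp1r (5.88), Pcp4 (5.01), Ipcef1 (4.65), Apol9b (4.5) and the sodium pump subunit Atp1b1 (4.44). Ipcef1 stood at 10.13 to 10.22 in KO Treg, 9.89 to 10.07 in KO Th0 and 5.39 to 5.67 in KO Th17, so here the Th17 group was the one apart.

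The 6 largest downward were Il23r (-6.74), Il17f (-6.63), Ly6g (-6.12), Cysltr1 (-6.12), Il1r1 (-5.96) and Lilrb4a (-5.87). Il23r and Il1r1 encode receptors for cytokines that sustain Th17 cells. Il17f read 5.03, 4.85 and 5.13 in KO Treg and 11.91, 11.71 and 11.28 in KO Th17, and Il17a 4.11, 4.12 and 4.24 against 8.28, 8.32 and 7.46. KO Treg cultures were thus at the Th0 level for both cytokines. The Th17 factors Ahr and Maf averaged 9.14 and 8.28 in KO Treg and 9.78 and 8.11 in KO Th17.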

How the data were processed

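The log2 RMA values are as deposited: per the submitters' processing notes, the authors normalised the Affymetrix arrays with RMA in R 3.1.0 using oligo; versions and annotation builds are otherwise not given in the sources used here. RMA shares 1 intensity distribution over all 36 arrays, so shifts of most genes at once are reduced. Of 41345 probe sets, 23521 had 1 gene symbol, 1814 several and 16010 none; 23328 of the first matched RefSeq (GRCm38.p6). A gene with several probe sets (1082 genes) was represented by the one with the highest mean. Genes above a log2 value of 5.26 in at least 3 samples were kept, 13082 in all. A group-means model over all 36 samples (12 groups of 3) was fitted with limma 3.58.1 in R 4.3.3, with 24 residual degrees of freedom, and p-values were adjusted by Benjamini-Hochberg over all genes tested. The model was tested on simulated data. An exact permutation test of 3 against 3 samples cannot go below p = 0.1 and was not used.

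Groups came from the sample titles. The same replicate numbers recur across groups. Deviations from the group means correlated at 0.23, 0.13 and 0.30 between KO Treg and KO Th0 samples of the same number. For KO Treg and KO Th17 the values were 0.17, 0.096 and 0.18, and for WT 0.17, 0.11 and 0.028. The labels do not say what a number marks, and samples of unlike number were not compared. The main model was therefore unpaired, and the replicate number was a block in an alternative only.

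Genes named are the 12 with the largest change in each direction in KO, the 6 in each direction of the genotype difference and of the comparison with Th17, and up to 4 per gene list, leaving out uncharacterised symbols, small RNAs, antigen receptor segments and sex-linked markers, with lineage genes such as Foxp3 always included. Members, lists and rules were chosen with earlier results of these data known, and list members named beyond the rule, with the miR-181 loci, were chosen after their values were seen. Alternatives covered the filter, scaling, probe set choice, array weights, variance prior, samples fitted, the replicate block and each sample left out.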

Additional observations from a re-analysis of the deposited data

Results flagged for a closer look

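The Treg minus Th0 difference of 67 of the 139 named genes tested was not the same in both genotypes, by the test of the difference itself in limma at an adjusted p under 0.05. Over all genes tested the share was 27.0%, and the named genes include 12 chosen as the extremes of this same difference and others chosen after their values were seen, so their share is no finding. Values are log2, KO minus WT. It was above 0 for 33. The most distant were Pcp4 (4.53), Scd1 (3.95), Usp18 (3.93), Oasl2 (3.73), Fads2 (3.71), Oas2 (3.43), Vegfa (3.1), Gzmc (2.75), Oas3 (2.49), Gpr83 (2.13) and Ccr8 (2.03). Then came Msmo1 (1.94), Itgam (1.85), Irf7 (1.83), Cmpk2 (1.69), Cysltr1 (1.63), Igfbp4 (1.61), Lilrb4a (1.5), Slc43a3 (1.49), Isg15 (1.47), Ifih1 (1.46), Il12rb2 (1.43), Pmepa1 (1.39), Glp1r (1.38) and Insig1 (1.35). The smaller ones were Nfil3 (1.23), Prf1 (1.15), Bambi (1.1), Capg (0.99), Cd8a (0.96), Cst3 (0.9), Ifit2 (0.84) and Trim28 (0.75).

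It was below 0 for 34. The most distant were Il7r (-2.45), Cacna1b (-2.52), Tent5c (-2.57), Abca1 (-2.68), Abcc8 (-2.75), St8sia6 (-3.31) and Fermt1 (-5.31). Then came Klrd1 (-1.14), Cd40lg (-1.16), Slc2a3 (-1.32), Ldlrad4 (-1.35), Ly6c1 (-1.37), Abcb1b (-1.4), Itgb3 (-1.48), Maf (-1.58), Skil (-1.69) and Nrp1 (-1.88). The smaller ones were Atf7ip (-0.38), Cd101 (-0.41), Trim24 (-0.48), Smurf2 (-0.6), Smad3 (-0.62), Smurf1 (-0.62), Cd28 (-0.66), Smad4 (-0.66), Gata3 (-0.67), Furin (-0.71), Nt5e (-0.84), Itgae (-0.87), Mir181a-2 (-0.99), Ipcef1 (-1.02), Pdk1 (-1.03), Smad7 (-1.06) and Stat4 (-1.07). The calls of Cd101, Itgae, Nt5e, Gata3, Atf7ip, Cd8a, Il12rb2 and Ifit2 were lost under at least 1 alternative. List members named beyond the rule, such as Klrd1, Capg, Cd28, Bambi, Furin and Skil, were not followed gene by gene under the alternatives. Whether their calls would hold was not tested.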

How the results depend on the processing

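The count of genes changed in KO Treg over KO Th0 was 2568 and fell to 1526 when only these 6 samples were fitted; leaving out 1 sample gave 1937 to 2472. For WT the range was 4544 to 5390, for the genotype difference 2739 to 4048, and for KO Treg over KO Th17 6105 to 6570. Array weights raised the genotype difference from 3529 to 5326 genes. Under cyclic loess 61.0% of its calls were higher in KO, against 48.5%. With the replicate number as a block, 2775 genes changed in KO Treg over KO Th0. The block moved no count of calls over all genes by over 1.5 times. List members named beyond the rule were not followed gene by gene under the alternatives. Among the other named genes in KO the block changed the call of Gata3 alone. For these genes in KO, 699 of the values with 1 sample left out kept direction and side of the threshold. A further 53 lost the call, 7 gained it and 15 changed sign. The sign changes were in genes not called: with 1 sample left out Fads2 ranged from -1.0 to 0.39, Ifng from -0.56 to 0.24, Il10 from -0.061 to 0.12, Il17f from -0.014 to 0.13, Il1r1 from -0.16 to 0.037, Il2 from -0.71 to 0.14, Il23r from -0.053 to 0.13, Ly6g from -0.20 to 0.056, Mki67 from -1.06 to 0.065 and Tgfb3 from -0.39 to 0.064. Il23r also turned with array weights (-0.028), under which 6 mitosis genes fell in KO and 10 naive and quiescence genes. The causes were not tested. Genes near background have compressed differences, so a small change there was not detectable.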
